A study of Mus musculus with 12 samples.

Results

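The measurement described here is the genotype by preparation interaction: the Dhep minus FF difference in isolated hepatocytes, minus the Dhep minus FF difference in liver. It is given on the normalized log2 signal of each array probe, so a positive value means that Dhep stood higher relative to FF in hepatocytes than it did in liver. All 12 arrays of the series entered it, in 4 groups of 3 taken from the sample titles. The groups were hepatocytes freshly isolated from IkkβDhep mice (Dhep, Cre-positive), hepatocytes of IkkβF/F mice (FF, Cre-negative), fresh liver of IkkβDhep mice and fresh liver of IkkβF/F mice. All were male adult C57BL6/J animals without a stated treatment, aged 4 to 6 weeks by the sample labels and 6 to 8 weeks by the design text. The promoter that drives Cre and the purity of the hepatocytes are not given in the sources used here. Of 45281 probes, 22859 were bright enough to be kept, and they represented 12010 genes.

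The design text speaks of 4 mice and 4 RNA samples. Each group of 3 arrays may therefore repeat 1 RNA sample of 1 mouse, and the spread between arrays may be technical. Standard errors (SE), standard deviations (SD) and p-values below then compare 4 RNA samples, and genotype, preparation and the individual mouse cannot be told apart. In bulk samples such as these, fewer cells of a type and less RNA per cell cannot be told apart either.

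Ikkβ, encoded by Ikbkb, is a kinase subunit of the IKK complex, which releases the transcription factor NF-κB by marking its inhibitors for degradation. Liver consists mostly of hepatocytes by mass, with sinusoidal endothelial cells, stellate cells and Kupffer cells (the resident macrophages) between them, and isolation of hepatocytes is meant to leave those other cells behind. If genotype and preparation acted additively on the log2 scale, the interaction of a probe would be 0 within error. MHC class II molecules present peptides on antigen-presenting cells, and their transcription depends on the coactivator Ciita. The guanylate-binding proteins (GBPs) and immunity-related GTPases (IRGs) are GTPases induced by interferons, interferon-γ above all.

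The 12 arrays correlated at Pearson's r of 0.9977 to 0.9984 across probes within a group and at 0.9742 to 0.9917 between groups. Median raw intensity ran from 41 to 53.8 per array. The 75th percentile of raw intensity was 75.5 to 85.7 on the FF hepatocyte arrays and 94.7 to 119 on the other 9. Ikbkb itself, on its kept probe (ILMN_2589556), read 7.67, 7.62 and 7.67 in Dhep hepatocytes, 7.28, 7.39 and 7.39 in FF hepatocytes, 7.38, 7.58 and 7.46 in Dhep liver and 7.65, 7.54 and 7.66 in FF liver. Its interaction of 0.45 ± 0.08 (SE) was not called. Where this probe lies with respect to the floxed part of the gene is not known here, and it therefore gives no check of the deletion. Hepatocyte identity genes were the brightest cell type list in every group: the summed linear signal of 27 measured genes was 356000 to 357700 in Dhep hepatocytes, 352200 to 359700 in FF hepatocytes, 338100 to 345300 in Dhep liver and 341700 to 352100 in FF liver. Markers of other liver cells stood above the floor in isolated hepatocytes too, among them all 28 measured Kupffer cell markers in both genotypes.

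An interaction was called where limma's Benjamini-Hochberg adjusted p over the 22859 probes was under 0.05 and its absolute log2 value at least 1. By this rule 579 probes were called, 2.53% of those tested. Of these, 171 (0.748%) were higher and 408 (1.78%) lower. With 1 probe per gene, 295 of 12010 genes (2.46%) were called, 107 higher (0.891%) and 188 lower (1.57%). Counts of called list members below are to be read against these shares of all genes. Without the fold threshold 10324 probes (45.2%) passed the adjusted p, 5467 higher and 4857 lower, since the median SE was 0.086 and the median absolute interaction 0.188. The called probes nearest the fold threshold were Banf1 at -1.0006 and D8Ertd738e at -1.0009, and the nearest uncalled ones Znrd1 at -0.999 and Dusp6 at 0.999. The balance of directions depended on the scaling of the arrays: with median scaling in place of quantile normalization 1900 probes were higher and 112 lower, or 94.4% higher, and the median interaction of all probes was 0.233, against 0.02 with quantile normalization.

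**Figure D1:**
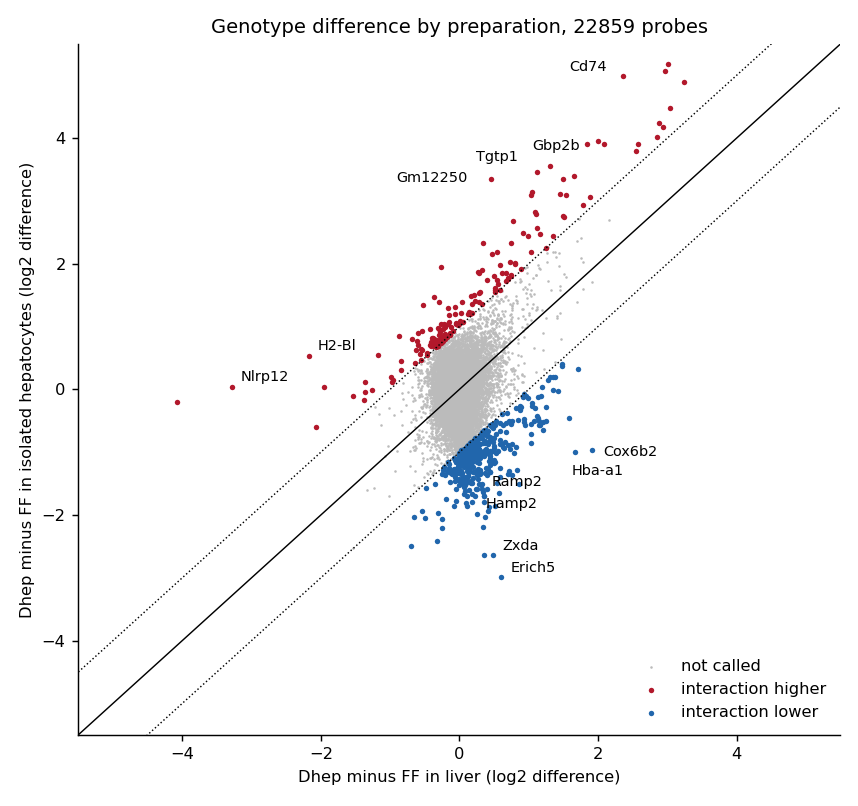
Each point is 1 of 22859 probes, with the Dhep minus FF log2 difference in liver on the horizontal axis and in isolated hepatocytes on the vertical axis; the solid line marks equal differences and the dotted lines an interaction of 1 in either direction. Called probes are red (171 higher) and blue (408 lower), and the immune genes at the upper right were higher in Dhep in both preparations but more so in hepatocytes.

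The interaction carried 24.5% of the sum of squares between the 4 group means over all kept probes, against 35.3% for preparation and 40.1% for genotype. The SD of the interaction share over the 3 sets of arrays was 0.24 percentage points. Among the 171 higher probes, the genotype difference reached an absolute value of 1 in hepatocytes alone on 66, in liver alone on 11 and in both with the same sign on 32. On the other 62 it reached 1 in neither preparation. Among the 408 lower probes the same counts were 225 in hepatocytes alone, 31 in liver alone, 0 in both and 152 in neither. The contrasts behind the interaction had calls of their own by the same rule. Dhep was called higher than FF on 278 probes (1.22%) and lower on 283 (1.24%) in hepatocytes, and on 115 (0.503%) and 21 (0.0919%) in liver. Hepatocytes were called higher than liver on 113 probes (0.494%) and lower on 108 (0.472%) in Dhep, and on 286 (1.25%) and 44 (0.192%) in FF. These contrasts share arrays with the interaction. No called interaction had genotype differences past 1 in opposite directions. Hba-a1 (-0.99 in hepatocytes and 1.67 in liver) and Cox6b2 (-0.97 and 1.92) came close and were counted under liver alone. At any size, the sign of the genotype difference differed between preparations on 49.1% of the higher, 84.8% of the lower and 48.6% of all kept probes. An interaction depends on the scale on which effects are added. All 579 called probes kept their sign when the contrast was taken on linear intensities, as did 22472 of all 22859 kept probes.

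Genes of MHC class II presentation were among the most strongly affected, and all called members were higher. Of 13 measured genes, 8 were called higher, 0 lower, and 5 did not pass, with a median interaction of 1.24, against 0.02 over all genes. The median Dhep minus FF difference of the list was 3.11 in hepatocytes and 1.45 in liver. Read the other way, the median hepatocytes minus liver difference was 1.21 in Dhep and -0.02 in FF.

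Cd74, the invariant chain, accompanies class II molecules to the compartment where peptides are loaded, and shows the pattern on its brightest probe (ILMN_1221817). It read 14.52, 14.50 and 14.47 in Dhep hepatocytes, against 9.30, 9.31 and 9.35 in FF hepatocytes. The liver arrays read 12.33, 12.31 and 12.20 in Dhep, against 9.25, 9.31 and 9.25 in FF. The FF arrays of both preparations overlapped, and the Dhep hepatocyte arrays stood above the Dhep liver arrays with no overlap. The interaction was 2.17 ± 0.08 (SE), a 4.51-fold larger genotype ratio in hepatocytes, with limma adjusted p = 3.6e-16. The other 2 Cd74 probes gave 2.63 and 2.10.

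The chaperone that exchanges peptides on class II molecules followed. H2-DMa, one of its chains, averaged 10.99 ± 0.18 in Dhep hepatocytes and 7.08 ± 0.03 in FF hepatocytes, and 9.18 ± 0.07 in Dhep liver and 7.10 ± 0.06 in FF liver (SD, n = 3 arrays each). Its interaction was 1.82, and 2.08 on its other probe. H2-DMb1 and H2-DMb2, the partner chains, had interactions of 1.85 and 1.66. Ciita, the class II coactivator, had 1.64, with genotype differences of 2.19 in hepatocytes and 0.55 in liver. The class II chains H2-Ab1 (1.36), H2-Aa (1.24) and H2-Eb1 (1.24) were called as well. The lysosomal proteases Ctss and Lgmn, which act in antigen processing, stood at 0.72 each and did not pass. H2-Oa (0.00), H2-Ob (-0.07) and the lysosomal thiol reductase Ifi30 (-0.34) were not called. H2-Oa averaged 5.98 to 6.19 by group and H2-Ob 5.97 to 6.15, close to the floor of log2 6.06, so their missing calls say little.

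Markers of Kupffer cells and macrophages, which also carry class II molecules, differed between the same samples. Their summed linear signal over 28 genes was 52560 to 52800 in Dhep hepatocytes, 21510 to 21930 in FF hepatocytes, 35490 to 36130 in Dhep liver and 20070 to 20560 in FF liver. Dhep exceeded FF in both preparations, and the arrays of Dhep hepatocytes exceeded all others. The list's median interaction was 0.34, with 2 genes called higher and 1 lower. Timd4, a phosphatidylserine receptor of resident macrophages, was called higher at 1.18, and read 8.61 ± 0.02 in Dhep hepatocytes against 7.40 ± 0.11 in FF hepatocytes, and 7.61 ± 0.08 in Dhep liver against 7.58 ± 0.05 in FF liver (SD, n = 3 arrays each). Mpeg1, a pore-forming protein of macrophages, was called at 1.08 (0.58 on its other probe). Cd163, the macrophage receptor for haemoglobin, went the other way at -1.56: it averaged 6.32 ± 0.06 in Dhep hepatocytes, against 8.37 ± 0.12 in FF hepatocytes, 7.92 ± 0.08 in Dhep liver and 8.42 ± 0.07 in FF liver (SD, n = 3 arrays each). The summed signal of 10 neutrophil markers was 4065 to 4343 in Dhep hepatocytes, 1032 to 1099 in FF hepatocytes, 1972 to 2098 in Dhep liver and 986 to 1011 in FF liver. Most of that sum in Dhep hepatocytes was Lcn2, which is also on the NF-κB target and acute phase lists. Without it the sum was 1386 to 1467 in Dhep hepatocytes, 719 to 752 in FF hepatocytes, 1143 to 1186 in Dhep liver and 747 to 779 in FF liver. The neutrophil list's median interaction was 0.03, with 6 positive and 4 negative values. The part of these cells in the class II interaction, and in that of the interferon-inducible genes below, was not tested.

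Interferon-inducible GTPases showed the same direction as class II genes. Of 16 measured genes, 11 were called higher, 0 lower, and 5 did not pass, with a median interaction of 1.28. Their median Dhep minus FF difference was 2.17 in hepatocytes and 0.98 in liver, and their median hepatocytes minus liver difference was 1.33 in Dhep and -0.02 in FF. On 8 of the 11 called genes Dhep hepatocytes stood alone above the other 3 RNA samples, by a gap larger than the range of those 3. Among all 171 higher probes this held on 51.

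Gbp2b, a guanylate-binding protein, read 10.82, 10.78 and 10.80 in Dhep hepatocytes, against 7.37, 7.24 and 7.12 in FF hepatocytes. The values in liver were 8.90, 8.91 and 8.90 in Dhep, against 7.57, 7.55 and 7.65 in FF. Dhep exceeded FF in both preparations without overlap, and the interaction was 2.24 ± 0.08 (SE, limma adjusted p = 1.04e-15). Gm12250, which encodes the immunity-related GTPase Irgb10 and was outside the list, had the largest interaction of this family at 2.91 ± 0.09. It read 10.18, 10.19 and 10.09 in Dhep hepatocytes, against 6.72, 6.78 and 6.90 in FF hepatocytes. In liver it read 7.11, 7.28 and 7.08 in Dhep, against 6.68, 6.70 and 6.74 in FF, so the liver difference was 0.45.

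Tgtp1, an IRG, averaged 9.47 ± 0.08 in Dhep hepatocytes and 6.00 ± 0.09 in FF hepatocytes, and 7.21 ± 0.10 in Dhep liver and 6.09 ± 0.07 in FF liver (SD, n = 3 arrays each). The FF hepatocyte mean lay under the floor of 6.06 (the median of all probe means), and the interaction of 2.34 becomes at least 2.28 with the FF hepatocyte mean raised to the floor. Gbp3 gave 2.07 and 2.10 on its 2 probes, Gvin1 1.95, Ifi47 1.72, Gbp2 1.69 and Gbp11 1.6. Irgm2 (1.30), Gbp5 (1.25), Gbp10 (1.19) and Igtp (1.16) were called too. Gbp7 (0.79) and Iigp1 (0.67) did not pass. Mx1 (0.07), Irgm1 (-0.01) and Mx2 (-0.15), of which the Mx genes are induced mainly by type I interferons, were not called. Mx1 averaged 6.03 to 6.18 by group, close to the floor, so its missing call says little.

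The promoters of GTPase genes that moved together, with Irf1 beside them, are shown because they hold the letters of known interferon response elements. They are the 250 bases before the transcription start from RefSeq, build GRCm38.p6, printed on the gene's strand. Capitals mark matches to the interferon-stimulated response element (ISRE, GAAA, any 2 bases and GAAA) or the interferon-γ activated site (GAS, TTCNNNGAA), each searched on both strands; no ISRE match overlapped a GAS match. Gbp3 lies at chr3:142559794-142560043 on the plus strand and Gbp2b at chr3:142594597-142594846 on the plus strand. Tgtp1 lies at chr11:48992247-48992496 on the minus strand, Gm12250 at chr11:58183593-58183842 on the plus strand and Irf1 at chr11:53769764-53770013 on the plus strand.
Gbp3: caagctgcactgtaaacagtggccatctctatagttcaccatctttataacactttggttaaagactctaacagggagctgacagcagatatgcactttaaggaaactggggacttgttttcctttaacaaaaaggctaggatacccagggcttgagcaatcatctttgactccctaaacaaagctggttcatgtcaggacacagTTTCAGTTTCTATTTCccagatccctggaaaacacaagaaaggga
Gbp2b: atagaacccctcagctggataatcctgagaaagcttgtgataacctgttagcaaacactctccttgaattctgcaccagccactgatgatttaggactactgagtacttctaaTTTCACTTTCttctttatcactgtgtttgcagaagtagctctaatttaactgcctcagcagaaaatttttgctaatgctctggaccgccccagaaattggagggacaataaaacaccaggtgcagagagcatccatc
Tgtp1: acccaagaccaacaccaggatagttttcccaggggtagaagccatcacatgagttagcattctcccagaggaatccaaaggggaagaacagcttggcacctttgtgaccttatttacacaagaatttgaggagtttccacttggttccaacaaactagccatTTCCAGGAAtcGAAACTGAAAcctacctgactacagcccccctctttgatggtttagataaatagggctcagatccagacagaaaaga
Gm12250: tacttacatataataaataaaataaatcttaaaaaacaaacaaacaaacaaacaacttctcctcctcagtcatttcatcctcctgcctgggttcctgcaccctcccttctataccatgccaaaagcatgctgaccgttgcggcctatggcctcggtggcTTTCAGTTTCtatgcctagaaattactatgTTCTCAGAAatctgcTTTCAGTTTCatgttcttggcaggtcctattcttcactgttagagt
Irf1: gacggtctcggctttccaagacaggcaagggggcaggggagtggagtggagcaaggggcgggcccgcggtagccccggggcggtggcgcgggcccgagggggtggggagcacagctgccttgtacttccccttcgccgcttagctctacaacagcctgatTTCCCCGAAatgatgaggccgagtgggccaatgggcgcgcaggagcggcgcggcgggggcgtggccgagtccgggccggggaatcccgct

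The Gbp3 window holds 2 ISRE matches that overlap each other, Gbp2b 1 and Gm12250 2, with a GAS match between them. Tgtp1 holds 1 GAS and 1 ISRE match, and Irf1 1 GAS match. Of 23 named genes called higher, 17 had a promoter sequence, and windows without a match are not shown. Genes on chromosome 18, Cd74 and Egr1 among them, were left out of the display with or without a match. Nlrp12, high in FF liver alone, held 1 GAS match and is not shown either. Genes with any probe called higher numbered 124, of which 99 had a promoter sequence. Among them 16 (16.2%) held the ISRE letters, against 6 of 218 (2.75%) of genes called lower and 335 of 9723 (3.45%) of all measured genes. Of all 32851 promoters in the table, 2.98% held them. The GAS letters stood in 13.1% of the genes called higher, 5.5% of those called lower, 7.48% of all measured genes and 7.02% of all promoters. A match describes letters in this window and not a site in use.

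Class I genes and the response to type I interferon had smaller interactions. Of 20 genes of class I presentation and the immunoproteasome, 2 were called higher (median 0.36). Tapbp, the chaperone tapasin, was at 2.00 on 1 probe and at 0.07 on the other. Tap1, a subunit of the peptide transporter, was at 1.03, and missed the threshold at 0.98 without FF hepatocyte array 2, at 0.98 without FF liver array 1 and just under 1 without Dhep liver array 1. Psmb9, an immunoproteasome subunit, stood at 0.68 (called at 1.28 with median scaling), with genotype differences of 2.37 in hepatocytes and 1.69 in liver. Outside the list, the nonclassical class I gene H2-T10 was called at 2.21 (0.67 and 1.04 on its other probes). Of 26 genes of the type I interferon response, Dtx3l, a ubiquitin ligase, was called higher (1.26, and -0.10 on its other probe) and Bst2, the membrane protein tetherin, lower (-1.06), with a median of 0.32. The Bst2 call was lost at -0.43 with median scaling and, at -0.98 to -0.92, without Dhep hepatocyte array 1, FF hepatocyte array 2, Dhep liver array 1 or 3, or FF liver array 1 or 2. Oasl2, of the oligoadenylate synthetase family, stood at 0.98 and passed, at 1.00 to 1.02, without Dhep hepatocyte array 1, FF hepatocyte array 1 or 3, or Dhep liver array 1. It also passed at 1.05 without background correction, 1.1 with a normexp offset of 16 and 1.54 with median scaling.

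Irf1, a transcription factor induced by interferon-γ and by NF-κB, read 11.59, 11.50 and 11.49 in Dhep hepatocytes, against 9.61, 9.44 and 9.58 in FF hepatocytes. The liver arrays read 11.41, 11.46 and 11.40 in Dhep, against 10.87, 10.80 and 10.83 in FF. Its interaction of 1.39 ± 0.08 (SE, limma adjusted p = 1.6e-12) had another form than that of the GTPases, since FF hepatocytes stood alone below the other 3 RNA samples. The other 4 Irf1 probes ranged from 0.41 to 1.30. Of 20 genes of STAT and IRF factors, Irf1 was called higher and Ifngr2, a chain of the interferon-γ receptor, lower (median 0.40). Ifngr2 was at -2.40 on the called probe but at 0.07 and 0.19 on its other probes. Batf2, a basic leucine zipper factor, stood at 0.81 and was not called, but passed at 1.04 without background correction, 1.32 with a normexp offset of 16 and 1.06 in the authors' table.

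NF-κB target genes contributed 4 of 25 called higher and 0 lower, with a median interaction of 0.24. Vcam1, an adhesion molecule for leukocytes, averaged 10.65 ± 0.06 in Dhep hepatocytes and 8.16 ± 0.09 in FF hepatocytes, and 8.58 ± 0.10 in Dhep liver and 7.66 ± 0.10 in FF liver (SD, n = 3 arrays each), giving 1.58. Its other 2 probes, dim in all groups, gave 0.20 and 0.26. Irf1 was the next of the 4. Lcn2, which binds bacterial siderophores, and Tnfaip2 were both at 1.18. Tnfaip2 stood low in FF hepatocytes alone. Of 23 genes of the IKK complex and its regulators, limma called 0, and 10 had an unadjusted p under 0.05, 9 higher and 1 lower. Over all 12010 genes 53% had an unadjusted p under 0.05, 3476 higher and 2893 lower. The list's median was 0.10. Ikbkg, the regulatory subunit NEMO, stood at 0.74 (0.00 and 0.04 on its other probes), Tab2 at 0.63 and Tbk1 at 0.56, both of which are parts of kinase pathways around IKK. With median scaling these were called at 1.4, 1.28 and 1.16. Of 23 chemokines and adhesion molecules, 1 was called higher (Vcam1) and 2 lower, and the median was -0.07. Under median scaling it was 0.03, and -0.2 once the shift of all probes was taken off. Cxcl13 (-1.44) and Ccl5 (-1.08), chemokines for B cells and for T cells, were high in Dhep liver alone: Ccl5 read 8.34, 8.38 and 8.21 there, against 6.86, 6.83 and 6.78 in FF liver, and averaged 7.21 ± 0.10 in Dhep hepatocytes and 6.80 ± 0.11 in FF hepatocytes (SD, n = 3 arrays each). The Ccl5 call was lost at -0.74 with median scaling.

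**Figure D2:**
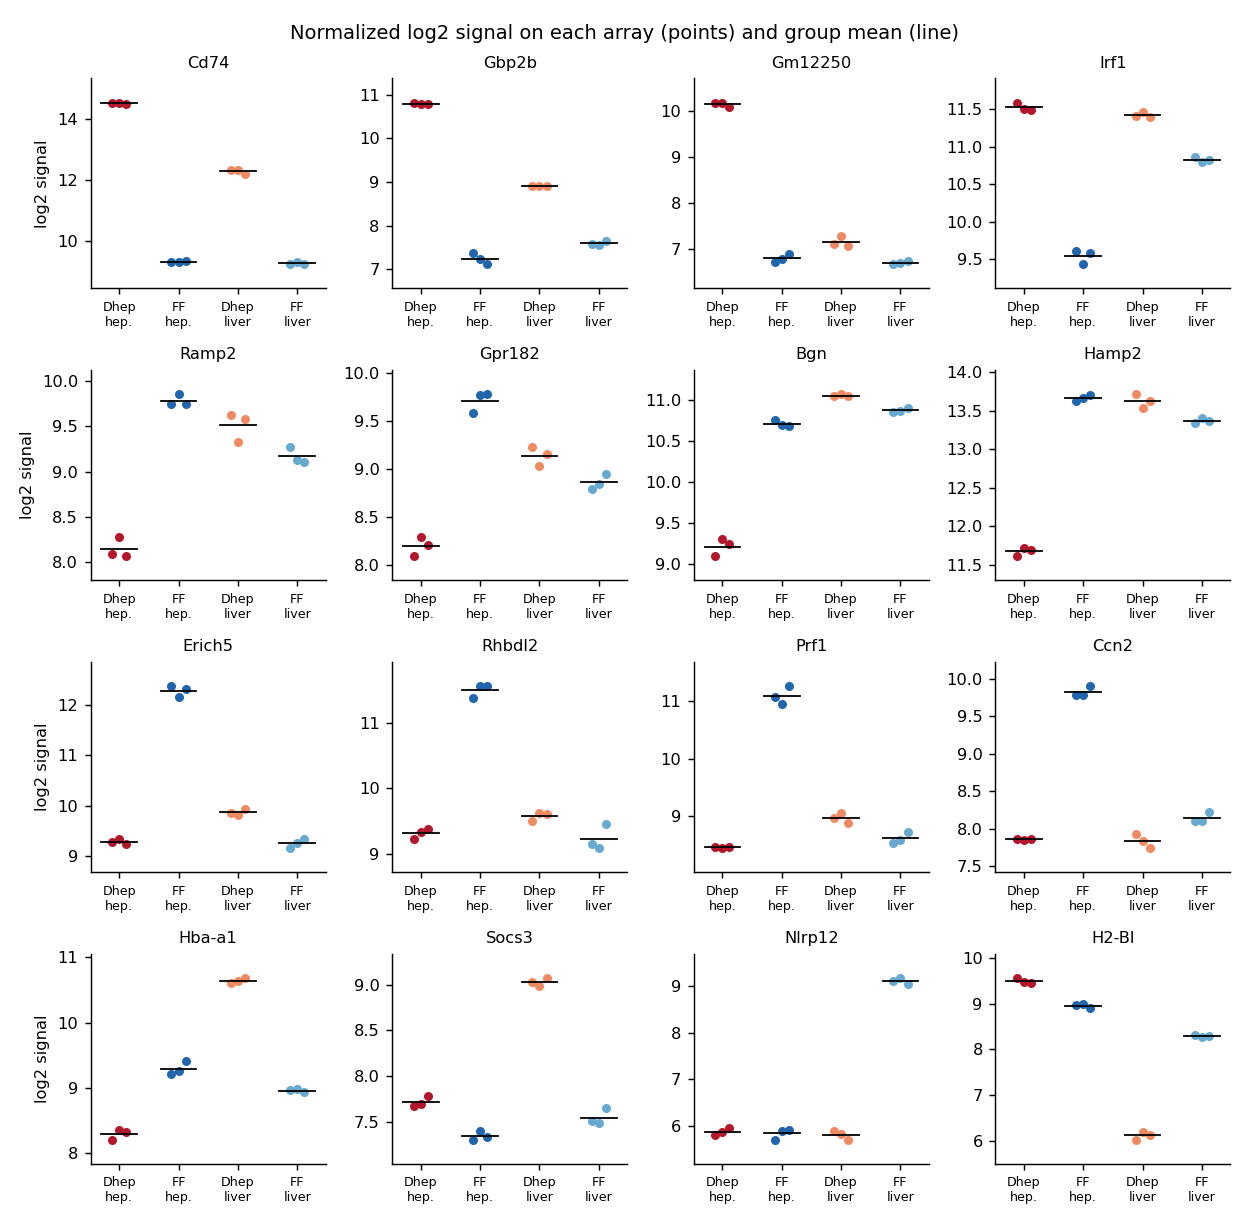
Each panel plots the normalized log2 signal of 1 gene on the 12 arrays (points) with the group mean (line), for Dhep and FF hepatocytes (hep.) and Dhep and FF liver; vertical axes differ and do not start at 0. Cd74, Gbp2b and Gm12250 were highest in Dhep hepatocytes, Ramp2, Gpr182, Bgn and Hamp2 lowest there, Erich5, Rhbdl2, Prf1 and Ccn2 highest in FF hepatocytes, and Hba-a1 and Socs3 highest in Dhep liver.

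Markers of sinusoidal endothelium had the lowest median of the 40 lists. Of 29 measured genes, 15 were called lower, 0 higher, and 14 did not pass, with a median of -1.01. The Dhep minus FF difference had a median of -1.0 in hepatocytes and 0.11 in liver. The hepatocytes minus liver difference had a median of -0.84 in Dhep and 0.20 in FF. The summed signal of the 29 markers was 11560 to 11930 in Dhep hepatocytes, 23110 to 23730 in FF hepatocytes, 20760 to 21120 in Dhep liver and 19290 to 19330 in FF liver. The arrays of Dhep hepatocytes were thus below all others, while those of FF hepatocytes were above both liver groups.

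Ramp2, which partners the adrenomedullin receptor in endothelium, read 8.09, 8.28 and 8.07 in Dhep hepatocytes, against 9.75, 9.85 and 9.75 in FF hepatocytes. In liver it read 9.62, 9.33 and 9.58 in Dhep, against 9.27, 9.13 and 9.11 in FF. Dhep hepatocytes stood alone below the rest, and the interaction was -1.97 ± 0.10 (SE, limma adjusted p = 2.94e-13). Gpr182, a chemokine-binding receptor of sinusoidal endothelium, read 8.10, 8.30 and 8.21 in Dhep hepatocytes, against 9.59, 9.77 and 9.78 in FF hepatocytes. The values in liver were 9.23, 9.04 and 9.16 in Dhep, against 8.80, 8.85 and 8.95 in FF. Its interaction was -1.79, and -1.68 on its other probe. Gpihbp1, which anchors lipoprotein lipase to capillaries, gave -1.55 and -1.57 on its 2 probes, the first of which missed the threshold at -0.92 with median scaling.

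Called with them were the guidance receptor Robo4 (-1.46), the VEGF receptor Flt1 (-1.39), the junction protein Esam (-1.36), the TGF-β coreceptor Eng (-1.36), Plvap of the endothelial diaphragms (-1.32) and the nuclease Dnase1l3 (-1.31). The scavenger receptor Stab1 was called at -1.18 and its relative Stab2, at -1.0, missed the fold threshold. The lectins Clec4g (-1.04) and Lyve1 (-1.01) were called. Lyve1 differed in form, since its genotype difference was -0.07 in hepatocytes and 0.94 in liver, with FF liver low alone. Kdr (-0.11), Flt4 (-0.20) and Tie1 (-0.28), growth factor receptors of endothelium, were not called, and Clec1b (0.00) and Ntn4 (0.09) stood near 0. Of the 15 called genes, 10 were low in Dhep hepatocytes alone, as were 104 of all 408 lower probes. With median scaling the list's median was -0.47, and -0.7 once the shift of all probes was taken off. Median scaling kept 112 of all 408 lower calls, so the smaller calls of this list depend on the scaling.

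Stellate cell and matrix genes took the same direction. Of 23 markers of stellate cells and fibroblasts, 9 were called lower and 0 higher, with a median of -0.55, and on all 9 Dhep hepatocytes stood alone below the other RNA samples. The list's summed signal was 7114 to 7247 in Dhep hepatocytes, 14910 to 15290 in FF hepatocytes, 15690 to 15910 in Dhep liver and 15450 to 15780 in FF liver. The 3 other RNA samples were thus close together, and the arrays of Dhep hepatocytes were below them all. Bgn, the matrix proteoglycan biglycan, read 9.10, 9.31 and 9.24 in Dhep hepatocytes, against 10.76, 10.70 and 10.68 in FF hepatocytes. In liver it read 11.05, 11.07 and 11.05 in Dhep, against 10.86, 10.87 and 10.90 in FF, and the interaction was -1.68 ± 0.08 (SE, limma adjusted p = 7.38e-14). Acta2, smooth muscle actin, was at -1.82 on its brightest probe and between -0.39 and -0.18 on 3 dimmer ones. The collectin Colec11 was at -1.50 (-0.81 and not called with median scaling), the matrix proteins Ecm1 and Reln at -1.29 and -1.15. Lrat (0.02), which makes the retinyl esters that stellate cells store, and Des (-0.50), the intermediate filament desmin, were not called. With median scaling the list's median was -0.29, and -0.53 once the shift of all probes was taken off.

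Of 28 extracellular matrix genes, 7 were called lower and 1 higher, with a median of -0.52. Bgn, Sparc, Col3a1 and Dcn are members of both this and the stellate list. Sparc, a collagen-binding protein, was at -1.37, with -1.68 and -1.43 on its other probes. With median scaling the calls of Sparc (-0.69) and Col4a1 (-0.76) were lost. Of the basement membrane collagens, Col4a1 was at -1.40 and Col4a2 at -1.14. Col4a1 averaged 7.65 ± 0.11 in Dhep hepatocytes and 8.74 ± 0.11 in FF hepatocytes, and 8.94 ± 0.05 in Dhep liver and 8.64 ± 0.06 in FF liver (SD, n = 3 arrays each). Fn1, fibronectin, which hepatocytes themselves secrete, was the 1 member called higher, at 1.37.

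Limma called 0 members of the hepatocyte identity list. Some members were very bright in every group, such as Apoc3 (15.31 to 15.42) and Ahsg (15.10 to 15.15), and Fgb (6.17 to 6.36) was close to the floor. Saturation of bright probes was not tested, so missing calls of such members say little. Of the list's 27 measured genes, 11 had an unadjusted p under 0.05, 7 higher and 4 lower, against 53% of all genes, and the median was 0.02. The largest values were -0.97 for the asialoglycoprotein receptor Asgr2, 0.94 for Apob of very low density lipoproteins and 0.52 for Cps1 of the urea cycle. Asgr2 passed, at -1.01 to -1.0, without Dhep hepatocyte array 2, Dhep liver array 3 or FF liver array 1, and at -1.06 in the authors' table, -1.08 with cyclic loess and -1.0 with a normexp offset of 16. Apob passed at 1.01 in the authors' table and 1.36 with median scaling. Alb, on a probe with signal of 7.67 to 8.35 by group, had an interaction of -0.09 ± 0.16 whose sign changed with the processing. The lists of other liver cells differed in direction: macrophage markers had a median of 0.34, against -1.01 for sinusoidal endothelium and -0.55 for stellate cells, and with median scaling the medians were 0.87, -0.47 and -0.29.

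**Figure D3:**
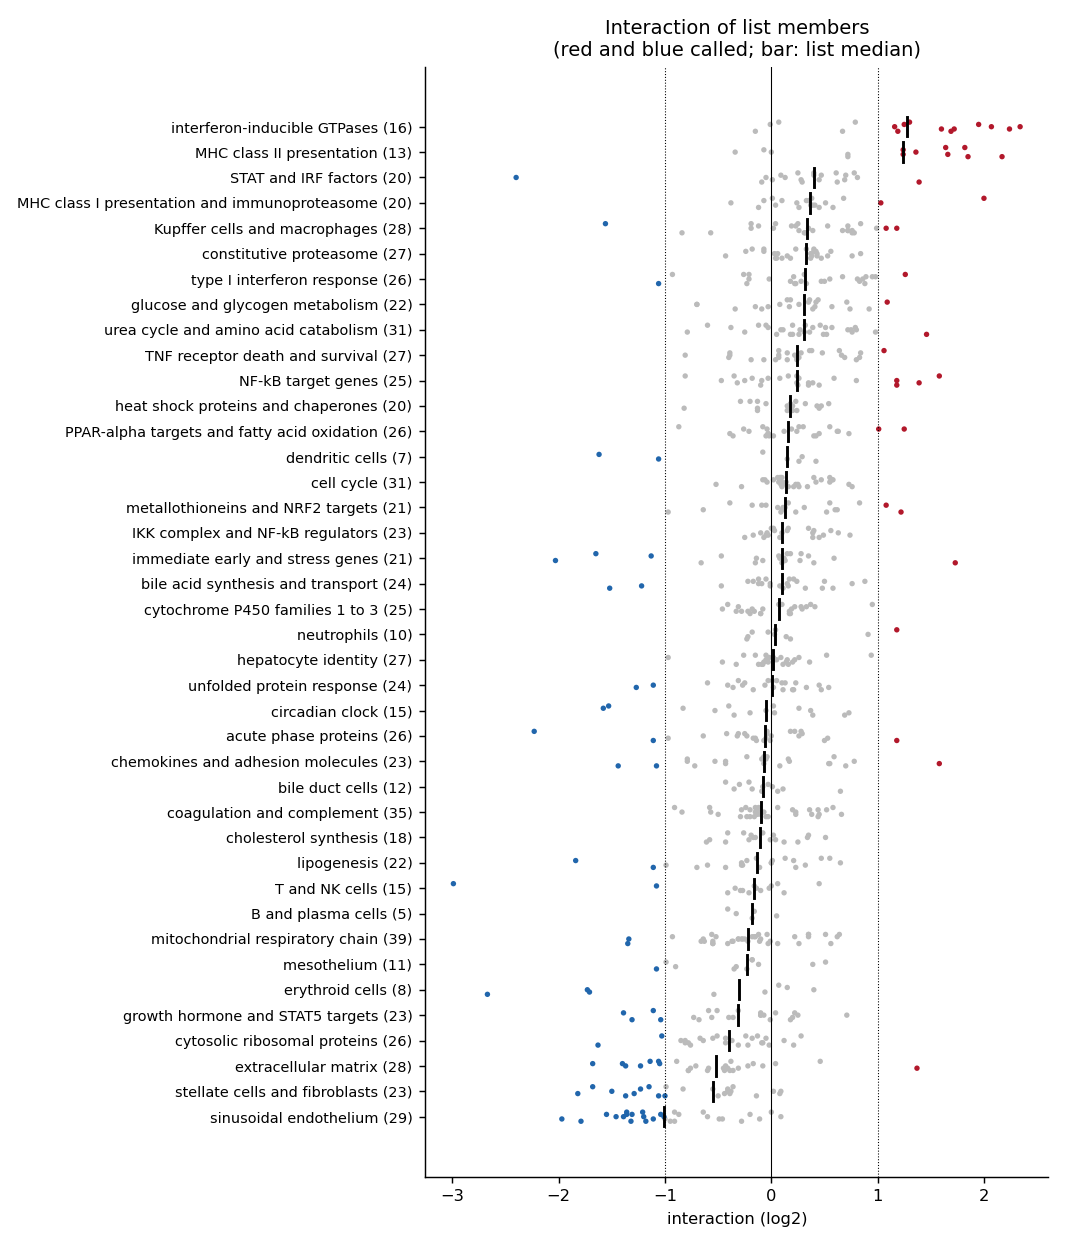
Each point is the interaction (log2, horizontal axis) of 1 measured gene of a list, with red and blue points called higher and lower, grey points not called, a black bar at the list median and the number of genes in brackets; lists are sorted by median. GTPases and MHC class II genes lie at the top (medians 1.28 and 1.24) and sinusoidal endothelium at the bottom (-1.01); median scaling moves the median of all probes to 0.233 and most list medians upward with it.

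Each group may be 1 RNA sample, so each called probe was also described by the sample that stood apart: a group whose 3 arrays all lay to one side of the other 9, with a gap larger than the range of the other 3 means. A lone sample fixes the sign of the interaction, so this description is not independent of the calls. Among the 171 higher probes, Dhep hepatocytes stood high alone on 51 and FF hepatocytes low alone on 42. Dhep liver was low alone on 10, FF liver high alone on 5, and no sample stood alone on 63. Among the 408 lower probes, FF hepatocytes stood high alone on 207 (50.7%) and Dhep hepatocytes low alone on 104 (25.5%). Dhep liver was high alone on 26, FF liver low alone on 9, and no sample stood alone on 62. Over all kept probes, Dhep hepatocytes were high alone on 4.81% and low alone on 7.01%, and FF hepatocytes high alone on 9.66% and low alone on 8.22%. The liver patterns held 2.21% (Dhep high), 1.85% (Dhep low), 2.42% (FF high) and 0.744% (FF low) of them.

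**Figure D4:**
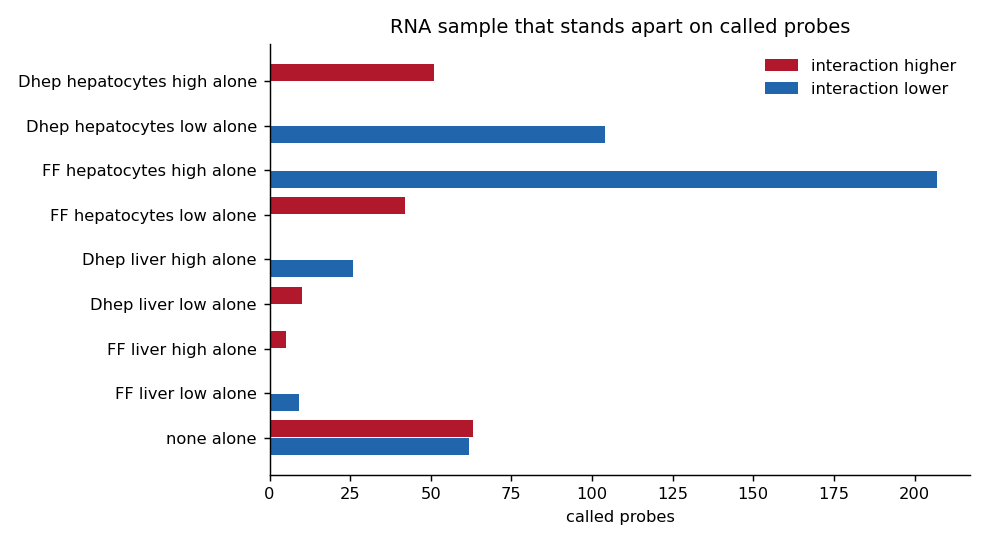
Bars count the called probes (horizontal axis) on which 1 RNA sample stood alone above or below the other 3, for higher (red) and lower (blue) interactions. FF hepatocytes standing high alone make up 207 of the 408 lower calls, of which median scaling kept 112 in all.

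The 207 probes on which FF hepatocytes stood high alone differed from the others in annotation. Of these, 31.9% carried a curated RefSeq mRNA accession (NM_) and 39.6% had no gene symbol, against 76.4% and 15.9% of all kept probes. Of the 104 probes low in Dhep hepatocytes alone, 86.5% carried such an accession and 7.69% had no symbol. The 3 largest lower interactions of named genes, those of Erich5, Zxda and Prf1, belonged to the first kind. Erich5, which encodes a glutamate-rich protein, read 9.28, 9.34 and 9.25 in Dhep hepatocytes, against 12.36, 12.15 and 12.31 in FF hepatocytes. The liver arrays read 9.86, 9.81 and 9.93 in Dhep, against 9.17, 9.26 and 9.35 in FF. The 3 other samples lay close together, and FF hepatocytes were 3.02 above FF liver. The interaction was -3.59 ± 0.09 (SE, limma adjusted p = 1.04e-18).

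Prf1, the pore-forming perforin of cytotoxic lymphocytes, had the same form. It read 8.47, 8.45 and 8.47 in Dhep hepatocytes, against 11.07, 10.96 and 11.26 in FF hepatocytes, and averaged 8.97 ± 0.09 in Dhep liver and 8.61 ± 0.09 in FF liver (SD, n = 3 arrays each). Its interaction was -2.99. Of 15 measured markers of T and NK cells, Prf1 and Ccl5 were called lower and 0 higher, with a median of -0.16, and Cd8b1 stood at 0.45 (-0.50 on its other probe, and called at 1.07 with median scaling). The list's summed signal was 2819 to 2926 in Dhep hepatocytes, 4586 to 4992 in FF hepatocytes, 2873 to 3021 in Dhep liver and 2967 to 3054 in FF liver. The mean linear level of Prf1 was 353.0 in Dhep hepatocytes, 2196.0 in FF hepatocytes, 503.1 in Dhep liver and 391.6 in FF liver.

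Further probes of this form were Zxda (-3.12), a zinc finger gene, the rhomboid protease Rhbdl2 (-2.53), Gm26588 (-2.35), the serine racemase Srr (-2.35), Nisch (-2.29) and Ndufaf4 (-2.15), an assembly factor of complex I. Where such a gene had other kept probes, most did not repeat the size. Nisch ranged from -0.85 to 0.68 on its other 4 probes, Ndufaf4 gave -0.32, and Srr gave -1.83 and 0.27. The named probes were picked for the size of the interaction. Brighter probes of Nisch (-0.29), Ndufaf4 (-0.32) and Srr (-1.83) gave smaller values. Ccn2, a matricellular protein of injured tissue, was an exception: it was at -1.65 on the list's probe and -1.56 on the other, and read 7.87, 7.85 and 7.86 in Dhep hepatocytes, against 9.79, 9.78 and 9.90 in FF hepatocytes.

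Hamp2, which encodes a hepcidin-family peptide, had the lowest interaction of the named genes that were low in Dhep hepatocytes alone. It read 11.62, 11.72 and 11.69 in Dhep hepatocytes, against 13.63, 13.66 and 13.70 in FF hepatocytes. In liver it read 13.71, 13.54 and 13.63 in Dhep, against 13.34, 13.41 and 13.37 in FF. The interaction was -2.23 ± 0.08 (SE, limma adjusted p = 4.26e-16).

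In 26 lower calls Dhep liver stood high alone, and haemoglobin genes were among them. Hba-a1, the α-globin of red cells, read 8.21, 8.36 and 8.32 in Dhep hepatocytes, against 9.21, 9.26 and 9.41 in FF hepatocytes. The values in liver were 10.61, 10.63 and 10.68 in Dhep, against 8.97, 8.98 and 8.94 in FF, and the interaction was -2.67. All 11 kept haemoglobin probes were high in Dhep liver alone, with interactions of -2.67 to -0.68, and 10 of the 11 were called. Of the other erythroid markers, Klf1 (-0.54), Bpgm (-0.06), Slc4a1 (0.07), Alas2 (0.15) and Tfrc (0.40) were not called. The summed signal of the 8 erythroid markers was 3699 to 3717 in Dhep hepatocytes, 4717 to 4770 in FF hepatocytes, 6981 to 7429 in Dhep liver and 5073 to 5153 in FF liver.

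Some interactions came from the liver samples without a large difference in hepatocytes. Nlrp12, a NOD-like receptor, read 9.10, 9.16 and 9.04 in FF liver, and its means in the 3 other groups, 5.89, 5.85 and 5.81, lay under the floor of 6.06. The interaction was 3.32, and 3.04 with those 3 means raised to the floor. H2-Bl, a class I gene, averaged 9.50 ± 0.05 in Dhep hepatocytes and 8.96 ± 0.04 in FF hepatocytes, and 6.12 ± 0.09 in Dhep liver and 8.29 ± 0.03 in FF liver (SD, n = 3 arrays each), giving 2.71. Cptp, a lipid transfer protein, was also low in Dhep liver alone, at 1.98 (at least 1.90 against the floor), but at 0.03 on its other probe. The probe with the largest interaction of all, ILMN_1214408, has no gene symbol here and was likewise low in Dhep liver alone: it averaged 12.38 in Dhep hepatocytes, 12.58 in FF hepatocytes, 8.91 in Dhep liver and 12.98 in FF liver, an interaction of 3.88 ± 0.08.

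Cox6b2, a cytochrome oxidase subunit, was low in FF liver alone, at -2.89 (-2.81 or below, with the FF liver mean at the floor). Its genotype differences were -0.97 in hepatocytes and 1.92 in liver. Tmsb10, an actin-binding thymosin, had -1.88 with genotype differences of -0.85 in hepatocytes and 1.03 in liver. Immediate early and stress genes split, with 1 of 21 called higher, 3 lower and a median of 0.10. Egr1, a transcription factor induced within minutes by growth factors and by handling, averaged 8.69 ± 0.06 in Dhep hepatocytes and 8.14 ± 0.06 in FF hepatocytes, and 9.19 ± 0.02 in Dhep liver and 10.36 ± 0.05 in FF liver (SD, n = 3 arrays each), giving 1.73. Gadd45g, a stress sensor, was low in FF liver alone, at 8.62, against 10.67 in Dhep hepatocytes, 11.12 in FF hepatocytes and 10.19 in Dhep liver, giving -2.03 (-1.73 on its other probe). Dusp1, a phosphatase of MAP kinases, was at -1.13.

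Growth hormone and STAT5 targets had 4 of 23 genes called lower and 0 higher, against 1.57% and 0.891% of all genes. The list's median was -0.31. Under median scaling it was 0.05, and -0.19 once the shift of all probes was taken off. The cytokine signalling inhibitors Socs2 (-1.39) and Socs3 (-1.11) differed between genotypes mainly in liver: Socs2 was low in FF liver alone and Socs3 high in Dhep liver alone. Socs3 read 9.03, 8.99 and 9.07 in Dhep liver, against 7.51, 7.49 and 7.65 in FF liver, and averaged 7.72 ± 0.05 in Dhep hepatocytes and 7.35 ± 0.05 in FF hepatocytes (SD, n = 3 arrays each). Igfbp3 (-1.31), a carrier of insulin-like growth factors, and the steroid dehydrogenase Hsd3b5 (-1.04) were low in Dhep hepatocytes alone. With median scaling the calls of Socs2 (-0.86), Igfbp3 (-0.74) and Socs3 (-0.62) were lost.

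Ribosomal and respiratory chain genes had small negative median interactions and few calls. Over all genes 1.57% were called lower. Of 26 cytosolic ribosomal protein genes, Rpl23 (-1.63) and Rpl30 (-1.03) were called, and the median was -0.40. Under median scaling it was 0.03, and -0.21 once the shift of all probes was taken off. Rpl23 ranged from -0.46 to 0.16 on its other probes. Rpl30 missed the threshold, at -1.0 to -0.98, without Dhep hepatocyte array 2, FF hepatocyte array 2, Dhep liver array 2 or FF liver array 1. Of 39 respiratory chain genes, Ndufb10 (-1.35, and -0.09 on its other probe) and Uqcrq (-1.34) were called, and the median was -0.22. Under median scaling it was 0.24, and 0.01 once the shift was taken off. The calls of Rpl30 (-0.36), Ndufb10 (-0.76) and Uqcrq (-0.78) were lost with median scaling. Rps15 (-0.85) and Cox6a1 (-0.93) were not called.

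Lists of amino acid, glucose and proteasome genes had positive medians with quantile normalization, median scaling, cyclic loess and the authors' table. Of 31 genes of the urea cycle and amino acid catabolism, Hal, histidine ammonia-lyase, was called higher (1.46, and 1.38 on its other probe), with a median of 0.31. Hal read 12.82, 12.84 and 12.82 in Dhep hepatocytes, against 11.85, 11.92 and 11.94 in FF hepatocytes, and 12.61, 12.51 and 12.56 in Dhep liver, against 13.15, 13.08 and 13.06 in FF liver. Cth (0.98), the cystathionine lyase, passed at 1.00 to 1.03 without Dhep hepatocyte array 1, FF hepatocyte array 1, Dhep liver array 1 or FF liver array 1, and Kmo (0.80) did not pass. Of 22 genes of glucose and glycogen metabolism, Ugp2, which makes UDP-glucose, was called at 1.09 (median 0.31), while Pgk1 (0.92) and the glycogen synthase Gys2 (0.74) were not. The Ugp2 call was lost, just under 1, with cyclic loess. Limma called 0 of 27 genes of the constitutive proteasome, and 19 had an unadjusted p under 0.05, 16 higher and 3 lower, against 53% of all genes (median 0.33). Psmd1 was at 0.84, Psmc6 at 0.76 and Psmc3 at 0.56. With median scaling these 3 were called at 1.34, 1.22 and 1.16, as were Cth (1.59), Kmo (1.38), Pgk1 (1.44) and Gys2 (1.39).

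**Figure D5:**
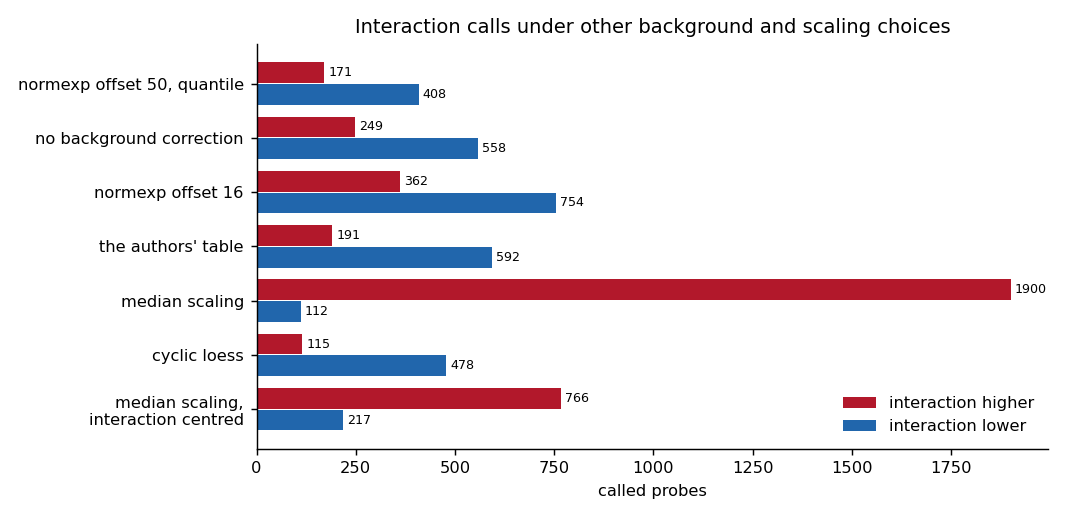
Bars count the probes called higher (red) and lower (blue) with quantile normalization after normexp background correction (top) and under 6 other choices of background or scaling (horizontal axis, called probes). Lower calls outnumber higher ones under quantile normalization, the authors' table and cyclic loess, while median scaling reverses the balance to 1900 higher and 112 lower.

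Single calls were also compared between scalings. With median scaling all 171 higher probes were again called higher, and 112 of the 408 lower probes were again called lower. Median scaling moved the median interaction of all probes to 0.233, which favours keeping higher calls. No probe was called in the opposite direction under median scaling, cyclic loess, the authors' normalized table or the other background settings. An opposite call would need a shift past both fold thresholds, so its absence does not show that direction is independent of scaling. When the interaction after median scaling was centred on its median over all probes, an alternative chosen after seeing the data, 766 probes were higher and 217 lower, and 169 and 213 of these were shared with the calls above.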

How the data were processed

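The series holds 12 Illumina mouse bead arrays in 4 groups of 3. Per the labels' protocols, total RNA was purified on columns with DNase treatment and labelled as biotin cRNA. The deposited raw table gives the authors' bead intensity per probe on a linear scale, and the deposited normalized table gives intensity scaled between arrays by the authors; BeadStudio is named without its background setting or normalization method. The raw intensities have no detection p-values, so the planned neqc normalization could not be run. They were background corrected (normexp, offset 50), log2 transformed and quantile normalized in limma 3.58.1 (R 4.3.3). Kept probes exceeded the median of all probe means (log2 6.06) on every array of at least 1 group. The 4 group means were fitted with lmFit and eBayes, and a call needed a Benjamini-Hochberg adjusted p under 0.05 and an absolute log2 value of at least 1. In the lists and the gene counts, a gene was read on its brightest kept probe. The largest calls named each way were instead read on the gene's called probe with the largest absolute interaction, whether or not it was the brightest. The fit was tested on simulated data.

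Named genes were the 12 largest calls each way with 1 gene symbol, the 3 largest members of each described list, the largest liver-only calls, Ikbkb, Ikbkg and Alb, with other list members as examples. The members and the 40 gene lists (822 genes measured) were chosen with earlier results of these data known. Alternatives changed the background, normalization, filter, call rule and replicate block, or left out 1 array. Replicate numbers in the titles did not pair the arrays: deviations of same-numbered arrays correlated at -0.0495 to 0.0705.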

Additional observations from a re-analysis of the deposited data

Results flagged for a closer look

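The genotype difference differed between hepatocytes and liver for the named probes below, by limma's interaction term past both thresholds, and the value in brackets is the log2 interaction. A gene named more than once stands for several probes. For a first set the Dhep minus FF difference was higher in hepatocytes than in liver, whichever preparation had the higher signal. It held Nlrp12 (3.32), Gm12250 (2.91), H2-Bl (2.71), Cd74 (2.63), Tgtp1 (2.34), Gbp2b (2.24), H2-T10 (2.21), Gbp3 (2.10) and H2-DMa (2.08). Further higher values were those of Tapbp (2.00), Cptp (1.98), Gvin1 (1.95), Egr1 (1.73), Cd74 (2.17), H2-DMb1 (1.85), H2-DMa (1.82), Gbp3 (2.07) and Tap1 (1.03). The remaining higher values belonged to Dtx3l (1.26), Irf1 (1.39), Vcam1 (1.58), Tnfaip2 (1.18), Timd4 (1.18), Mpeg1 (1.08), Hal (1.46) and Ugp2 (1.09).

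For the rest the Dhep minus FF difference was lower in hepatocytes than in liver, whichever preparation had the higher signal. They included Erich5 (-3.59), Zxda (-3.12), Prf1 (-2.99), Cox6b2 (-2.89), Hba-a1 (-2.67), Rhbdl2 (-2.53), Ifngr2 (-2.40), Gm26588 (-2.35) and Srr (-2.35). Further lower values were those of Nisch (-2.29), Hamp2 (-2.23), Ndufaf4 (-2.15), Gadd45g (-2.03), Tmsb10 (-1.88), Bst2 (-1.06), Cxcl13 (-1.44), Ccl5 (-1.08) and Ramp2 (-1.97). Others on the lower side were Gpr182 (-1.79), Gpihbp1 (-1.55), Acta2 (-1.82), Bgn (-1.68), Colec11 (-1.50), Col4a1 (-1.40), Sparc (-1.37), Cd163 (-1.56) and Hbb-bt (-1.73). The remaining lower values belonged to Hbb-bs (-1.71), Socs2 (-1.39), Igfbp3 (-1.31), Socs3 (-1.11), Ccn2 (-1.65), Rpl23 (-1.63), Rpl30 (-1.03), Ndufb10 (-1.35) and Uqcrq (-1.34). All of these compare 4 RNA samples, and no group was large enough for a test of single outlying arrays.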

How the results depend on the processing

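The 579 calls (171 higher, 408 lower) became 1116 (362 and 754) with a normexp offset of 16, 2012 (1900 and 112) with median scaling and 983 (766 and 217) with median scaling centred on the median interaction, the last chosen after seeing the data. They became 10324 (5467 and 4857) without a fold threshold and 944 (306 and 638) when limma's treat tested against a fold of 1.5. The counts were 249 and 558 without background correction, 191 and 592 in the authors' table, and 115 and 478 with cyclic loess. Without 1 array the total ran from 577 to 596, higher from 166 to 180 and lower from 407 to 421. The interaction share of 24.5% was 25.0% without background correction, 25.4% with offset 16, 36.1% with median scaling, 25.4% when centred and 24.8% without a filter, and 24.4% to 24.7% without 1 array. The replicate block left 579 calls, and it changed no other call; the numbers did not pair the arrays. Alb, at -0.09 and not called, was 0.49 with median scaling, 0.26 when centred and -0.22 to 0.05 without 1 array. With median scaling, 12 of 83 named probes lost their call (Bst2, Ccl5, Gpihbp1, Colec11, Col4a1, Sparc, Socs2, Igfbp3, Socs3, Rpl30, Ndufb10 and Uqcrq, at -0.92 to -0.36) and 14 gained one. Tap1 fell short at 0.90 in the authors' table and 0.84 with cyclic loess, and Ugp2 just under 1 with cyclic loess. Median scaling moved all probes to a median of 0.233. With that shift taken off, the ribosomal (-0.21), growth hormone (-0.19), chemokine (-0.2), acute phase (-0.03) and bile duct (-0.05) medians kept their negative sign, while those of respiratory chain (0.01), lipogenesis (0.01), coagulation (0.09), circadian (0.1) and cholesterol (0.2) genes were positive. With 3 arrays a group that may repeat 1 RNA, differences between mice were not measured, and probes near the floor have compressed differences.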

Other observations

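Further lists held few calls, read against 2.46% of all genes. In bile acid synthesis and transport, 2 of 24 genes were called lower: Cyp7a1, the hydroxylase that starts the main pathway from cholesterol, at -1.52 (genotype differences of -0.28 in hepatocytes and 1.24 in liver) and the uptake carrier Slc10a1 at -1.22. The clock-controlled genes Ciart (-1.58) and Usp2 (-1.53) were called lower among 15 circadian genes, both high in FF hepatocytes alone. The phosphatidate phosphatase Lpin1 (-1.84) and Thrsp (-1.11) were called lower among 22 lipogenic genes, and Asns (-1.27) and Chac1 (-1.11), targets of the transcription factor ATF4, among 24 of the unfolded protein response.

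Called higher were Osgin1 (1.22) and the haem oxygenase Hmox1 (1.08) among 21 metallothioneins and NRF2 targets, and the peroxisomal enzyme Ehhadh (1.25) and the lipid droplet protein Plin2 (1.01) among 26 PPARα targets. The inflammatory caspase Casp1 was called at 1.06 among 27 genes of TNF receptor signalling. Of 7 dendritic cell markers 2 were called lower, Siglech of plasmacytoid dendritic cells (-1.62) and Bst2 (-1.06), both high in FF hepatocytes alone. The median interaction of these 7 markers was 0.15, with 4 positive and 3 negative values. Slpi, a protease inhibitor, was lower at -1.08 among 11 mesothelial markers. Of 10 neutrophil markers, Lcn2 (1.18) was the 1 member called.

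Besides the IKK, hepatocyte identity and proteasome lists, limma called 0 genes in 7 lists. An unadjusted p under 0.05 was met by 53% of all genes. Members at an unadjusted p under 0.05 numbered 4 higher and 7 lower of 18 for cholesterol synthesis, 10 and 7 of 25 for cytochrome P450 genes and 11 and 10 of 35 for coagulation and complement. They numbered 14 and 2 of 31 for the cell cycle, 9 and 2 of 20 for heat shock proteins, 1 and 4 of 12 for bile duct cells and 0 and 2 of 5 for B cells.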
